A study of Homo sapiens with 9 samples.

Results

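The collagen gene family was examined in U251 glioblastoma cells with and without knockdown of the RNA-binding protein Musashi1 (MSI1). Members were all genes of the deposited gene table whose symbol reads COL, a number, A and a number, which gave 42 of 20848 genes. By type, 10 members were fibrillar collagens, 10 were fibril-associated collagens with interrupted triple helices (FACIT), 6 were type IV basement membrane collagens and 5 were type VI chains. A further 4 were transmembrane collagens, 3 short-chain network collagens, 2 multiplexins, and 2 (COL7A1 and COL28A1) fell outside these classes. The symbol COL29A1 in the table is the older name of COL6A5.

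U251 is an established human glioblastoma line, and MSI1 is an RNA-binding protein of neural stem cells that is also made in glioma cells. The study compared RNA-seq gene and exon counts of 3 control libraries, labelled wild type, with 3 libraries labelled Msi1 KD, and asked about expression and splicing. In 3 further samples labelled wild type, MSI1-bound RNA positions were mapped by iCLIP, in which protein is cross-linked to RNA by ultraviolet light and recovered with an antibody, here against MSI1. The protocol text of the labels, which is that of iCLIP for all samples, speaks of combined biological replicates. How the knockdown was made, what the control cells received, and whether the 3 libraries of a group are separate cultures are not given in the labels. The p-values below therefore measure the spread between these libraries, which may be technical.

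Collagens are secreted or membrane-bound proteins whose chains wind into triple helices, for which glycine must recur at a fixed spacing along the chain. Fibrillar collagens build the load-bearing fibrils of connective tissue, type IV collagens form the sheet of basement membranes, type VI forms beaded filaments around cells, and FACIT members sit on the surface of fibrils. In the brain, interstitial collagen is scarce outside vessels and meninges, while cultured glioma cells can deposit a collagen-containing matrix.

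Gene counts summed to between 32919299 (control replicate 3) and 47277016 (control replicate 1) per library. MSI1 stood at 16.1, 17.7 and 7.59 CPM (counts relative to library size, scaled with edgeR's TMM factors) in controls 1 to 3 and at 3.15, 5.11 and 2.26 in the knockdown libraries. The groups did not overlap, and the log2 fold change was -1.98 ± 0.42 (SE), with an adjusted p of 0.0699 that became 0.00279 when the replicate number was kept as a block. On the first principal component, with 62.5% of the variance, control replicate 3 scored 80.6 and the remaining 5 libraries -40.9 to 10.4. Among glioma markers, VIM (2135 to 2817 CPM) and CD44 (3105 to 3938 CPM) were high in all 6 libraries and AQP4 was at 0.101 CPM or below. GFAP stood at 105.6, 71.55 and 18.61 CPM in controls 1 to 3 and at 102.9, 83.19 and 37.12 CPM in knockdown libraries 1 to 3. S100B stayed between 1.11 and 2.35 CPM. NES ranged from 588 to 993 CPM, SOX9 from 74.8 to 149, FABP7 from 39.2 to 82.6 and SLC1A3 from 10.5 to 23.2 CPM. The stem cell factor SOX2, also a glioma marker, was called lower. It was the 1 gene called among 24 tested markers of glioma, neurons, leukocytes, endothelium and fibroblasts, beside 1.67% of all tested genes. It stood between 137 and 167 CPM in controls and between 84.9 and 94.9 CPM in the knockdown (log2 fold change -0.76 ± 0.13, adjusted p = 0.0432 in edgeR's test), and was no longer called with DESeq2 size factors (0.0646), with no filter on low counts (0.07), from exon sums (0.0575) or when any library other than control replicate 3 was left out (0.109 to 0.253). With the block, 7 markers were called higher (SOX9, SLC1A3, FABP7, SNAP25, KDR, PDGFRB and FAP) and 2 lower (SOX2 and PDGFRA), or 9 of 24. Of all tested genes 17.3% were called with the block, 7.04% higher and 10.3% lower. The part of these markers in the collagen results was not tested. Of 6 leukocyte markers ITGAM and CX3CR1 were at 0 and PTPRC did not exceed 0.0252 CPM, while CD68 stood at 3.70 to 6.54 CPM and CD14 and CSF1R stayed below 1 CPM. Of the neuron markers, GAD1 stood at 35.6 to 42.2 CPM, SYT1 at 18.5 to 27.7 CPM and SNAP25 at 1.11 to 4.56 CPM. SYP and SLC17A7 did not exceed 0.54 and 0.341 CPM. The fibroblast markers DCN and LUM did not exceed 0.235 and 0.157 CPM. In the same list, PDGFRA stood at 264 to 405 CPM and THY1 at 66.7 to 206 CPM. PDGFRB, ACTA2, RGS5 and FAP did not exceed 7.29, 2.83, 4.08 and 1.26 CPM. Over all 8 fibroblast and pericyte markers the summed level was 481 to 561 CPM in controls and 453 to 520 CPM in knockdown libraries, and over the 6 endothelial markers, most of it KDR, 13.6 to 14.6 CPM and 22.1 to 25.5 CPM.

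Collagen genes are built of many short exons, and this repeat structure is visible in the deposited exon table. Of 1948 collagen exons, 441 (22.6%) were exactly 54 nucleotides long, against 1140 of 206550 exons of all genes (0.552%). In fibrillar genes the share was 46.9%, and 81.7% of their exons had a length that is a multiple of 9 nucleotides, the length of 1 Gly-X-Y triplet. In type IV genes only 4.04% of exons were 54 nucleotides long, and COL8A1, a short-chain collagen with 5 exons, had none. The 4 exons below are shown because the libraries diverged on them while the repeat itself is the same. They are the exons whose share of their gene's exon counts was lowest and highest in control replicate 3, relative to controls 1 and 2, among 31 exons of COL11A1 and 23 of COL5A2 that are 54 nucleotides long, repeat Gly-X-Y throughout and had at least 100 counts in controls 1 and 2; they were chosen after these values were seen. Each is printed 5′ to 3′ on the coding strand, taken from GENCODE 29 transcripts on GRCh38, with capitals marking its 6 glycine codons. The exon number counts along the deposited table, whose positions are on hg18.
COL11A1 exon 51 (hg18 chr1:103153775-103153828, minus strand): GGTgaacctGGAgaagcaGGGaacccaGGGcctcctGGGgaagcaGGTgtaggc
COL11A1 exon 63 (hg18 chr1:103126721-103126774, minus strand): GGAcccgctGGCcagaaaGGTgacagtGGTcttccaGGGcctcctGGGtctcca
COL5A2 exon 30 (hg18 chr2:189634533-189634586, minus strand): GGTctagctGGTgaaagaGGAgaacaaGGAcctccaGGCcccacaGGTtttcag
COL5A2 exon 40 (hg18 chr2:189625720-189625773, minus strand): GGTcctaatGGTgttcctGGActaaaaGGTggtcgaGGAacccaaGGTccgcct

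The raw counts of COL11A1 exon 51 were 460, 456 and 16 in controls 1 to 3 and 415, 629 and 188 in knockdown libraries 1 to 3. COL11A1 exon 63 had 439, 742 and 644 counts in the controls and 416, 595 and 641 in the knockdown libraries. Exon 51 was thus almost empty in control replicate 3 while exon 63 of the same gene was not, and both exons have a GC content of 64.8%. COL5A2 exon 30 showed the same with 185, 157 and 13 control counts and 157, 130 and 79 knockdown counts. COL5A2 exon 40 was even across libraries, with 128, 137 and 109 control counts and 110, 102 and 87 knockdown counts, and both COL5A2 exons have a GC content of 55.6%.

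The family took 0.502% to 0.67% of all gene counts per library. Of the 42 members, 28 passed edgeR's filter on low counts and were tested among 13856 genes. The other 14 had at most 15 raw counts in any library: COL2A1, COL3A1 and COL5A3 among fibrillar genes, COL29A1 and COL6A6 of type VI, COL9A1, COL20A1 and COL22A1 of the FACIT group, COL23A1 and COL25A1 of the transmembrane group, and COL8A2, COL10A1, COL15A1 and COL28A1. COL5A3, COL20A1 and COL29A1 were at 0 in all 6 libraries. COL3A1, the usual partner of type I collagen in soft connective tissue, had 8, 2 and 0 control counts and 2, 2 and 1 knockdown counts.

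Per length, the highest control level was that of COL1A2, a chain of type I collagen, at 227 ± 41.0 CPM per kb of exon (SD, n = 3), followed by the fibril-nucleating COL11A1 at 162 ± 41.1. Then came the FACIT member COL12A1 at 68.0 ± 7.003, the type V chain COL5A2 at 59.4 ± 7.99, COL8A1 at 58.4 ± 11.9 and the FACIT member COL14A1 at 48.4 ± 7.68. COL5A1, COL6A1, COL4A2, COL18A1, COL4A1 and COL6A2 followed at 44.7, 43.8, 39.2, 32.1, 27.6 and 18.0 CPM per kb. From COL5A2 down to COL6A2, neighbours in this order differed by less than the larger of their SDs. COL1A1, the partner of COL1A2 in type I collagen, ranked 14th with 8.04 ± 3.26 CPM per kb. Fibrillar genes held 57.0% of the family's counts in controls and 57.8% in the knockdown, FACIT genes 19.5% and 16.1%, and type IV genes 10.3% and 10.6%. These shares pool the raw counts of a group's libraries, so they carry no spread, and their difference was not tested. Shares varied within groups: COL1A2, COL11A1, COL12A1 and COL5A2 together held 57.8%, 59.8% and 74.5% in controls 1 to 3. In knockdown libraries 1 to 3 they held 54.5%, 53.3% and 63.5%. The plot of levels by library shows CPM not divided by length, so its order differs from this one, and the spread within groups.

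**Figure D1:**
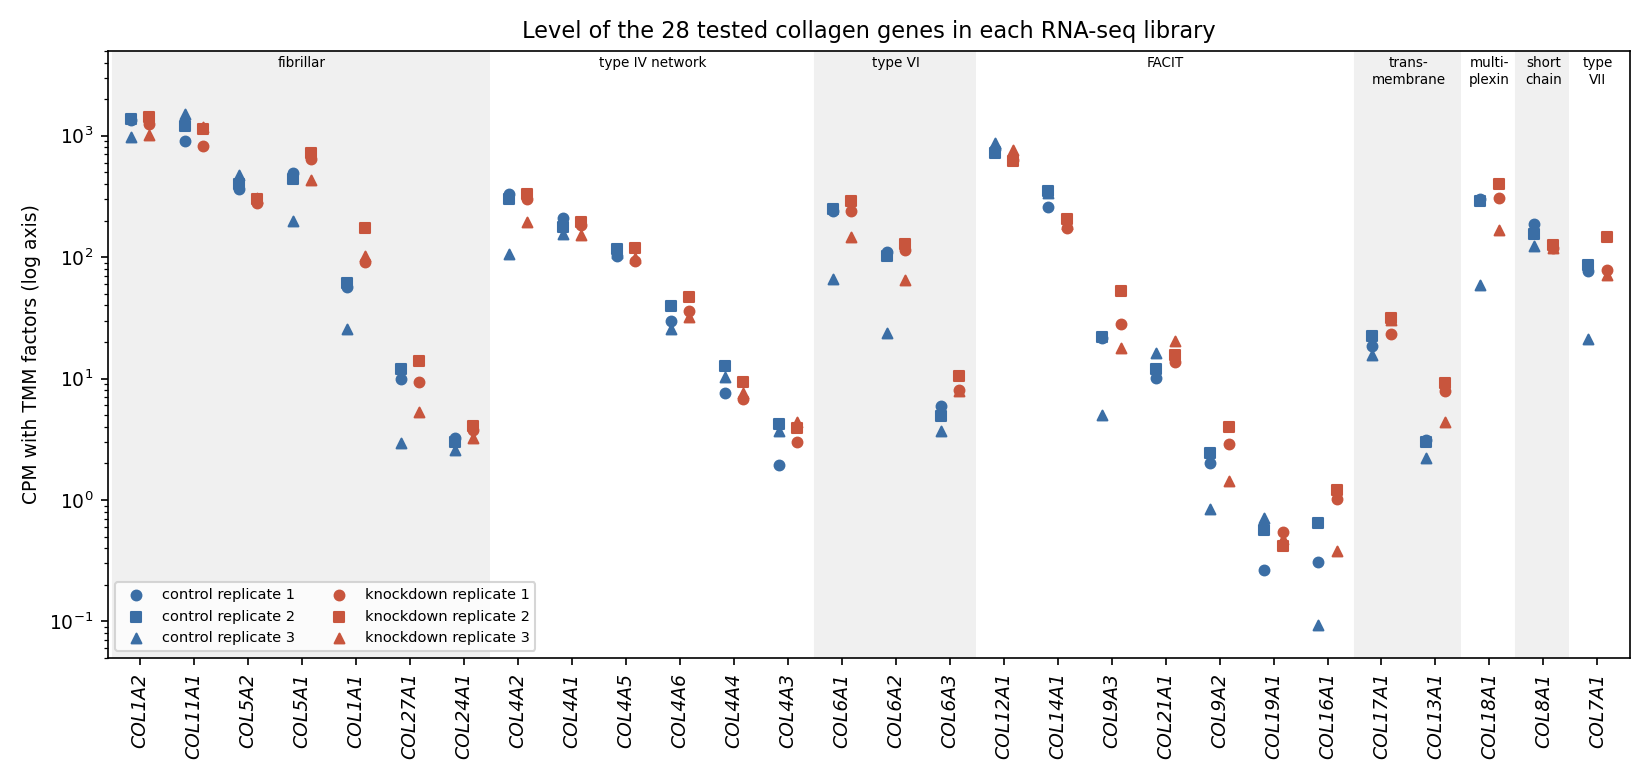
CPM (scaled with TMM factors, log axis) of the 28 tested collagen genes in each RNA-seq library, grouped by collagen type; blue points are controls, red points are MSI1 knockdown, and the symbol gives the replicate. COL1A2 lies between 973 and 1419 CPM in all 6 libraries, and the triangle of control replicate 3 lies far below the other controls for genes such as COL18A1 (59.3 against 299 and 292 CPM) and COL6A1 (65.6 against 241 and 248 CPM).

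In the comparison of knockdown with control, no collagen gene passed an adjusted p of 0.05 in edgeR's quasi-likelihood test on all 6 libraries. That is 0 of 28, against 1.67% of all tested genes (0.772% higher and 0.902% lower). At an unadjusted p under 0.05 there were 6 members, or 21.4% of the 28, against 15.5% of all tested genes. DESeq2 called 4 (COL13A1, COL1A1 and COL6A3 higher, COL14A1 lower) against 5.76% of all genes (3.19% higher and 2.57% lower). With the replicate number as a block, 9 members were called, 7 higher and 2 lower, against 17.3% of all genes (7.04% higher and 10.3% lower). The block was used because same-numbered libraries deviated together from their group means. Control replicate 1, however, correlated more with knockdown replicate 2 (0.49) than with knockdown replicate 1 (0.32). The 7 that rose in the blocked fit were COL1A1, COL5A1, COL6A3, COL9A3, COL13A1, COL16A1 and COL17A1, and the 2 that fell were COL14A1 and COL5A2. Without control replicate 3 and with no block, 3 members were called (COL1A1 and COL13A1 higher, COL14A1 lower), against 7.31% of all genes (4.47% higher and 2.84% lower). Leaving out any of the other 5 libraries gave 0 members, but these fits called almost no gene at all: 0.0714% of genes without control replicate 1, 0.0643% without control replicate 2, 0% without knockdown replicate 1, 0.0285% without knockdown replicate 2 and 0.0286% without knockdown replicate 3. The blocked fit without both replicate 3 libraries, which keeps 1 residual degree of freedom, called 17 members, 13 higher and 4 lower, against 31.8% of all genes (16.2% higher and 15.6% lower). The median log2 fold change of the 28 members was 0.28, with 18 above 0 and 10 below, and that of all tested genes was -0.04. Members whose groups did not overlap in CPM were COL1A1, COL6A3, COL13A1 and COL17A1 (higher) and COL5A2 and COL14A1 (lower), or 21.4% of the 28, beside 22.8% of all tested genes (8.73% higher and 14.1% lower). In bulk libraries, fewer cells making a collagen and less of its RNA per cell cannot be told apart.

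**Figure D2:**
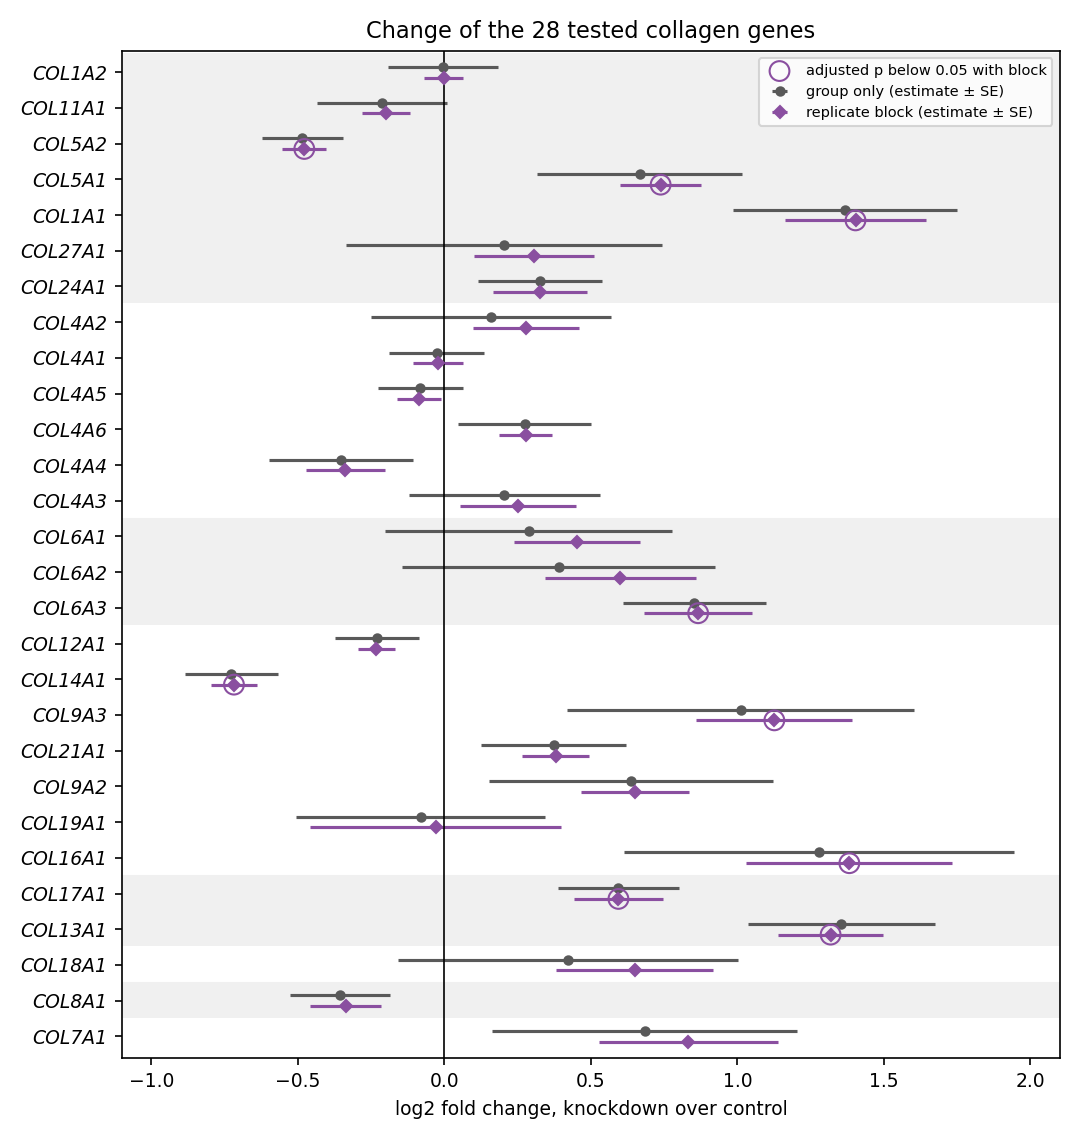
Log2 fold change (knockdown over control, ± SE) of the 28 tested collagen genes, in the same order as in the plot of levels; grey circles are the fit on group alone, purple diamonds the fit with the replicate number as a block, and rings mark an adjusted p below 0.05 in the blocked fit. For 20 of the 28 genes both estimates lie within 0.1 of each other, while that of COL18A1 moves from 0.42 to 0.65, and the SE is smaller with the block in all but COL19A1 (0.38 and 0.24 for COL1A1).

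Among fibrillar genes, 7 of 10 were tested, and 2 rose and 1 fell with the block. COL1A2 stood at 1344, 1368 and 973 CPM in controls and 1247, 1419 and 1008 CPM in the knockdown libraries. Its groups lay over each other, and its log2 fold change was -0.01 ± 0.19, a sign that turned under DESeq2 size factors (0.04). COL1A1 stood at 56.5, 61.0 and 25.5 CPM in controls and 91.3, 175 and 103 CPM in the knockdown. All knockdown libraries were above all controls, and the log2 fold change was 1.37 ± 0.38 (adjusted p = 0.135), or 1.40 ± 0.24 with the block (adjusted p = 0.0155). Without control replicate 3 it was 1.12 (adjusted p = 0.0106).

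COL5A1, which with COL5A2 makes the type V collagen that starts type I fibrils, had 493, 440 and 198 CPM in controls and 643, 723 and 430 CPM in the knockdown. The groups overlapped because knockdown replicate 3 lay below controls 1 and 2, but the knockdown was higher in 3 of 3 pairs. The log2 fold change was 0.67 ± 0.35 (adjusted p = 0.440) and 0.74 ± 0.14 with the block (adjusted p = 0.0204), but 0.42 without control replicate 3 (adjusted p = 0.251). COL5A2 moved the other way, from 362, 402 and 471 CPM in controls to 276, 298 and 307 CPM. Its groups did not overlap, and its log2 fold change was -0.48 ± 0.08 with the block (adjusted p = 0.0121), against an adjusted p of 0.145 without it. Without control replicate 3 and with no block it was -0.32 (adjusted p = 0.242). COL11A1 had 908, 1192 and 1519 CPM in controls and 823, 1133 and 1167 CPM in the knockdown. Its log2 fold change of -0.21 ± 0.22 was smaller than its SE and turned to 0.05 without control replicate 3. The remaining tested fibrillar genes, COL24A1 and COL27A1, were low, at 2.58 to 4.09 and 2.93 to 14.0 CPM, and were not called with or without the block.

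Type IV collagen genes lie in head-to-head pairs, and all 6 were tested, of which 3 had a log2 fold change above 0 and 3 below, and none was called with or without the block. The hg18 start sites of COL4A1 and COL4A2 on chromosome 13 are 134 bases apart, those of COL4A4 and COL4A3 on chromosome 2 are 5 apart, and those of COL4A6 and COL4A5 on chromosome X are 449 apart. COL4A2 had 328, 302 and 107 CPM in controls and 299, 332 and 193 CPM in the knockdown. Both replicate 3 libraries were low, and the log2 fold change of 0.16 ± 0.41 became -0.14 without control replicate 3. COL4A1 had 208, 178 and 155 CPM in controls and 183, 195 and 153 CPM in the knockdown. Its groups lay over each other, with a log2 fold change of -0.03 ± 0.16 that was 0.02 under DESeq2 size factors. COL4A6 had 29.7, 39.7 and 25.8 CPM in controls and 35.9, 47.3 and 32.0 CPM in the knockdown. It was higher in 3 of 3 pairs, but the groups overlapped and the adjusted p was 0.0909 with the block. The log2 fold changes of the 4 genes COL4A3 to COL4A6 ran from -0.35 ± 0.25 for COL4A4 to 0.27 ± 0.23 for COL4A6.

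The stretch between the COL4A1 and COL4A2 start sites is shown because these genes are known to be transcribed in opposite directions from a shared promoter region. It is 126 bases long in RefSeq on GRCh38.p14 (chr13:110307158-110307283, printed on the plus strand, the coding strand of COL4A2) and has a GC content of 80.2%.
COL4A1-COL4A2: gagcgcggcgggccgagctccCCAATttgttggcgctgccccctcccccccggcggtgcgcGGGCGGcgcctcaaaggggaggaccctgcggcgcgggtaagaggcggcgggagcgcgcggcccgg
Capitals mark the matches to CCAAT and GGGCGG, searched on both strands, with 1 match of each and no overlap between them. Of 34943 RefSeq promoters, 21.1% hold CCAAT and 34.5% hold GGGCGG in the 126 bases before their start. Although the chains share this region, their levels in control replicate 3 parted: relative to the mean of controls 1 and 2 on the log2 scale, COL4A2 stood at -1.56 and COL4A1 at -0.31. The transcripts have a GC content of 62.0% (COL4A2) and 55.4% (COL4A1).

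Of the 5 type VI genes, 3 were tested, and all had log2 fold changes above 0. COL6A3, the longest chain of the type VI filament, had 270, 192 and 118 raw counts in controls and 345, 398 and 312 in the knockdown. In CPM its groups did not overlap (3.67 to 5.97 against 7.85 to 10.4). On the log2 scale it was 0.85 ± 0.25 higher in the fit on group alone (adjusted p = 0.146) and 0.87 ± 0.18 higher in the blocked fit (adjusted p = 0.0288). COL6A1 had 241, 248 and 65.6 CPM in controls and 241, 291 and 145 CPM in the knockdown. Both replicate 3 libraries were low, and the log2 fold change of 0.29 ± 0.49 turned to -0.06 without control replicate 3. COL6A2, which lies on chromosome 21 like COL6A1, had 110, 101 and 23.8 CPM in controls and 115, 128 and 65.2 CPM in the knockdown. Its log2 fold change of 0.39 ± 0.53 was not called with or without the block and was 0.02 without control replicate 3.

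Of 10 FACIT genes 7 were tested, and with the block 2 rose and 1 fell. COL14A1, a fibril-surface collagen of tendon and skin, had 256, 348 and 334 CPM in controls and 174, 206 and 187 CPM in the knockdown. Its groups did not overlap, and its log2 fold change was -0.73 ± 0.16 (adjusted p = 0.0731), -0.72 ± 0.08 with the block (adjusted p = 0.00466) and -0.62 without control replicate 3 (adjusted p = 0.0361). COL12A1, its close relative, had 774, 714 and 875 CPM in controls and 632, 618 and 763 CPM in the knockdown. The knockdown was lower in 3 of 3 pairs, with log2 differences of -0.29, -0.21 and -0.20, but the groups overlapped and the adjusted p was 0.0559 with the block. COL9A3, a chain of the cartilage collagen type IX, had 21.7, 22.1 and 5.04 CPM in controls and 28.2, 52.4 and 17.9 CPM in the knockdown. The groups overlapped, and the log2 fold change of 1.01 ± 0.59 (adjusted p = 0.497) became 1.13 ± 0.27 with the block (adjusted p = 0.0381) and 0.64 without control replicate 3. COL16A1 was near the detection limit, with 14, 25 and 3 raw counts in controls and 43, 46 and 15 in the knockdown. Its groups overlapped, with a log2 fold change of 1.28 ± 0.67 and an adjusted p of 0.433, or 0.0469 with the block. COL9A2, COL19A1 and COL21A1 were not called in either fit.

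Both tested transmembrane collagens were higher in all knockdown libraries than in all controls. COL13A1, a transmembrane collagen of cell junctions, had 142, 117 and 71 raw counts in controls and 333, 352 and 174 in the knockdown. Its log2 fold change was 1.36 ± 0.32 (adjusted p = 0.0886), 1.32 ± 0.18 with the block (adjusted p = 0.00818) and 1.27 without control replicate 3 (adjusted p = 0.0189). COL17A1, a component of the hemidesmosomes that fix epithelial cells to the basement membrane, had 18.6, 22.4 and 15.5 CPM in controls and 23.2, 31.4 and 30.6 CPM in the knockdown. Its log2 fold change was 0.59 ± 0.21 (adjusted p = 0.221), or 0.59 ± 0.15 with the block (adjusted p = 0.0475). COL25A1, a neuronal transmembrane collagen, had 7, 6 and 3 raw counts in controls and 9, 15 and 6 in the knockdown, too few to be tested.

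Of the remaining members, COL18A1, a basement membrane multiplexin whose end fragment is endostatin, had 299, 292 and 59.3 CPM in controls and 304, 398 and 169 CPM in the knockdown. Relative to the mean of controls 1 and 2, control replicate 3 stood at -2.31 on the log2 scale, the lowest such value among the 28 tested members. The log2 fold change was 0.42 ± 0.58 with all libraries and 0.03 without that one. COL8A1, a network collagen of vessel walls and the cornea, had 187, 156 and 124 CPM in controls and 119, 127 and 119 CPM in the knockdown, with a log2 fold change of -0.36 ± 0.17. COL7A1, which forms the anchoring fibrils below epithelia, ranged from 21.0 to 86.0 CPM in controls and from 70.7 to 147 CPM in the knockdown. Neither was called with or without the block.

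The position of control replicate 3 among the collagens followed the GC content of their transcripts. Across the 28 tested members, its log2 CPM relative to the mean of the other 5 libraries had a Pearson correlation of -0.94 with GC content, and across 12980 tested genes with a GC value the correlation was -0.79. For knockdown replicate 3 the same correlations were -0.37 and -0.45. These are descriptions across genes that share the same libraries. The 11 members with a GC content above 60% had a median log2 fold change of 0.64, all 11 above 0, and that median was 0.33 without control replicate 3 and 0.34 with GC-dependent offsets in the fit. The 10 members below 50% GC had a median of -0.22, which became -0.02 without control replicate 3 and -0.11 with GC offsets. Over all tested genes with a GC value, the medians were 0.17 above 60% and -0.13 below 50%.

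With GC offsets and no block, 9 members were called (20.5% of all genes were, 10% higher and 10.5% lower), namely COL1A1, COL5A1, COL6A3, COL7A1, COL9A3, COL13A1 and COL17A1 higher, and COL5A2 and COL14A1 lower. COL1A1 had a log2 fold change of 1.22 there, COL13A1 1.20, COL5A1 0.56 and COL14A1 -0.62. With offsets and the block together, 16 members were called, 14 higher and 2 lower, against 40.6% of all genes (20% higher and 20.6% lower). The part of GC content in the calls of single members was not tested beyond these fits.

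**Figure D3:**
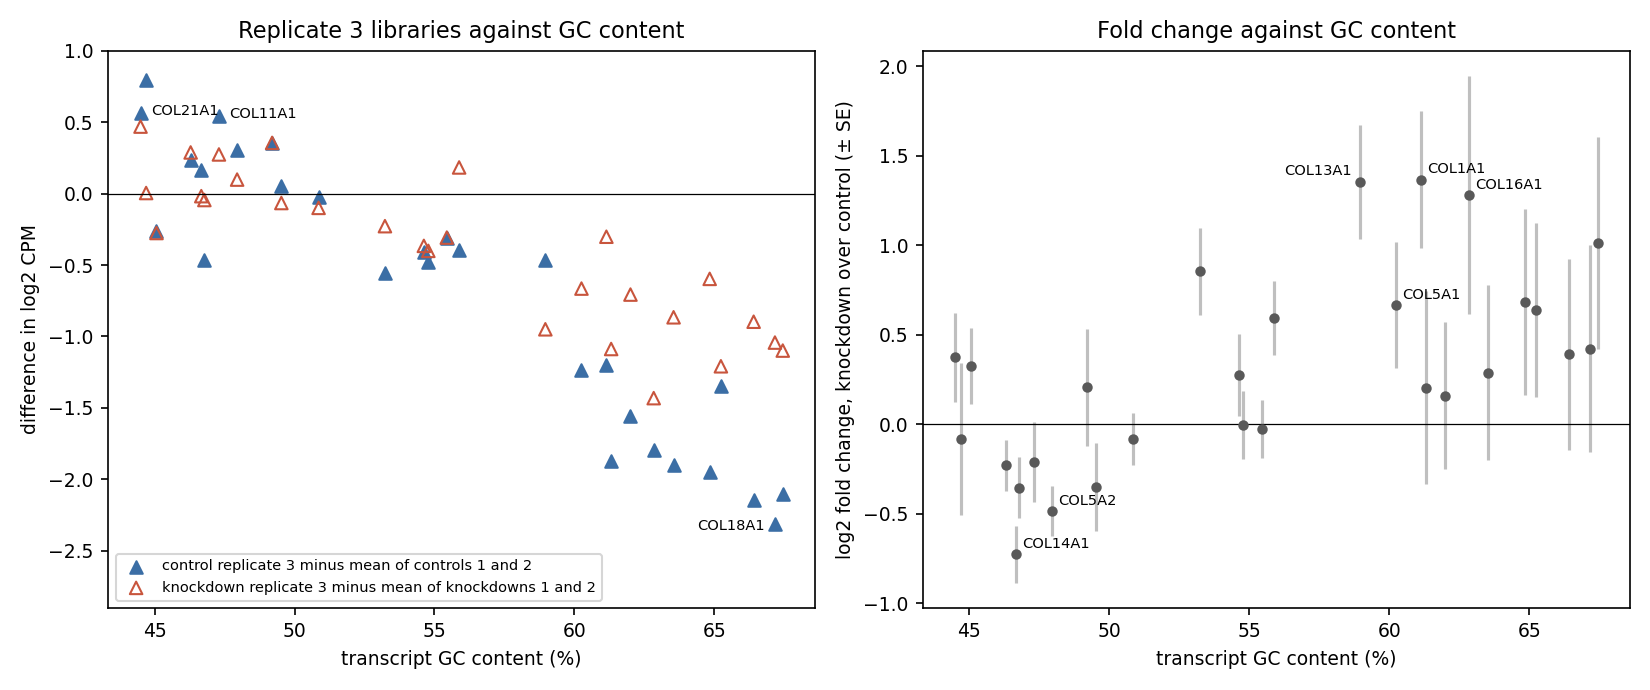
Left, log2 CPM of control replicate 3 minus the mean of controls 1 and 2 (filled blue triangles) and of knockdown replicate 3 minus the mean of knockdown replicates 1 and 2 (open red triangles) against transcript GC content (%), 1 point per tested collagen gene; right, log2 fold change (knockdown over control, ± SE) against GC content. In control replicate 3, COL18A1 with 67.2% GC lies at -2.31 and COL11A1 with 47.3% GC at 0.55, and in the right panel the fold changes of COL14A1 and COL5A2 lie below 0 at the low end of GC content.

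The same pattern held between exons of a single gene. In 10 collagen genes with at least 20 matched exons of at least 100 counts in controls 1 and 2, the correlation between an exon's GC content and its share in control replicate 3, relative to controls 1 and 2, was negative in 10 of 10, with a median of -0.67. For knockdown replicate 3 against knockdown replicates 1 and 2 it was also negative in 10 of 10, with a median of -0.51. COL14A1 had the strongest relation in control replicate 3 (-0.86 over 44 exons) and COL18A1 the weakest (-0.35 over 28 exons).

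Chains that assemble into the same trimer were compared within each library, as the log2 ratio of counts per exonic length. The ratio of COL1A1 to COL1A2 was -4.70, -4.62 and -5.39 in controls and -3.90, -3.15 and -3.43 in the knockdown, so that COL1A1 was the lower chain in all 6 libraries. The groups did not overlap, and the mean was 1.41 higher in the knockdown, at -3.49 ± 0.38 against -4.90 ± 0.42 (SD, n = 3; exact two-sided permutation p = 0.1, adjusted over 8 pairs 0.267), where 0.1 is the smallest p that 3 against 3 libraries allow. COL1A1 has a transcript GC content of 61.1% and COL1A2 of 54.8%, and control replicate 3 held the lowest of these ratios. The part of GC content in the ratios was not tested. The ratio of COL5A1 to COL5A2 was 0.17, -0.16 and -1.54 in controls and 0.93, 0.99 and 0.20 in the knockdown. It did not overlap either, with means of -0.51 ± 0.90 and 0.71 ± 0.44 (exact permutation p = 0.1, adjusted 0.267). COL5A1 has a transcript GC content of 60.3% and COL5A2 of 48.0%. The ratio of COL4A3 to COL4A4, chains with nearly equal GC content (49.2% and 49.5%), went from -1.33 ± 0.27 to -0.73 ± 0.25 without overlap (exact permutation p = 0.1, adjusted 0.267). These 3 ratios were higher in 3 of 3 same-numbered pairs. In the other 5 ratios the groups overlapped. Of these, COL4A5 to COL4A6 was lower in 3 of 3 pairs, by log2 differences of -0.40, -0.25 and -0.45, and so was COL6A1 to COL6A2, by -0.07, -0.11 and -0.30. An exact two-sided permutation test over the pairs gave p = 0.25, the smallest that 3 pairs allow, for both (adjusted over 8 ratios 0.4). The same test gave the same values for the 3 ratios without overlap. For COL4A1 to COL4A2, COL6A3 to COL6A1 and COL9A2 to COL9A3 this permutation test gave p = 0.5 (adjusted 0.5).

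**Figure D4:**
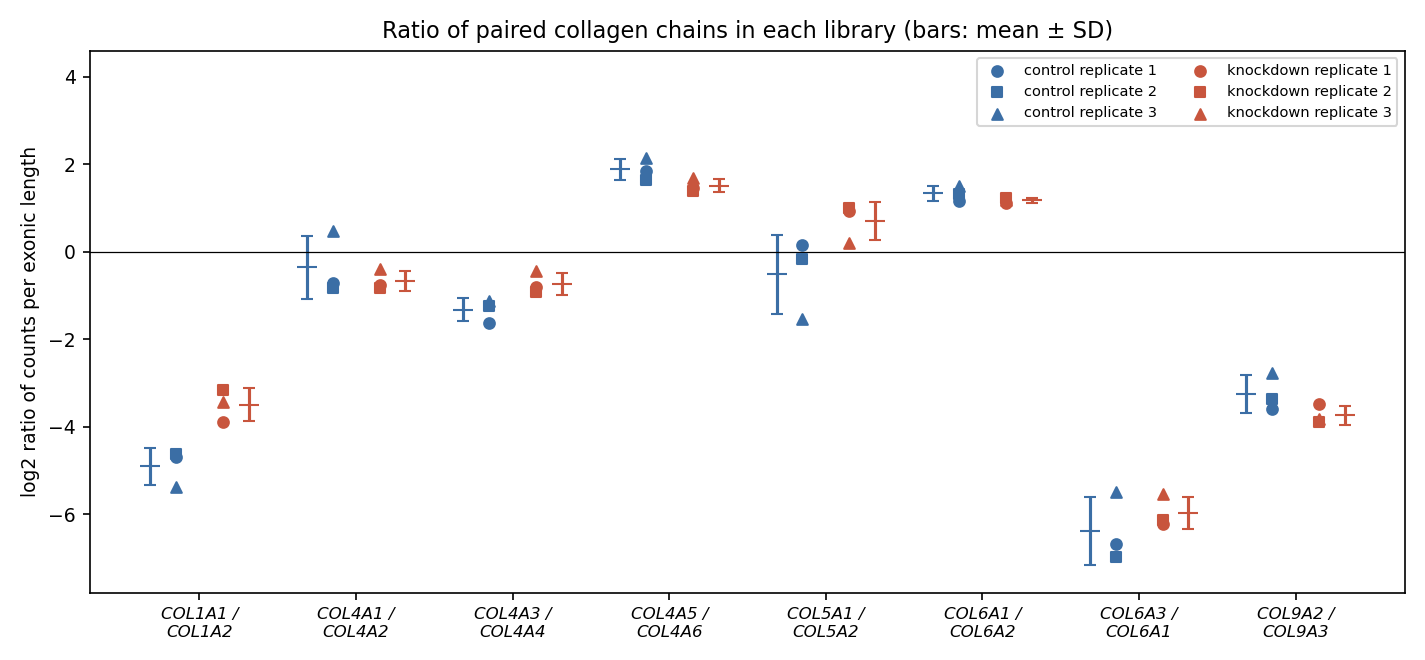
Log2 ratio of counts per exonic length for 8 pairs of collagen chains in each library (points; symbol by replicate), with the mean ± SD of each group as bars beside them. The COL1A1 to COL1A2 ratio lies between -5.39 and -4.62 in controls and between -3.90 and -3.15 in the knockdown, and groups also do not overlap for COL4A3 to COL4A4 and COL5A1 to COL5A2.

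Splicing was examined by testing each exon against the rest of its gene. Of 897 tested exons in 24 collagen genes, none was called (0 of 123109 exons of all genes were). None had an unadjusted p under 0.05 in this test, against 0.214% of all tested exons. With so low a share over all exons, these counts cannot show that collagen splicing was unchanged. With the block, 0 collagen exons were called, against 0.00812% of all exons, and 24 (2.68%) had an unadjusted p under 0.05, against 1.96% of all. In edgeR's test without the block, all adjusted p-values of collagen exons were 1, and the lowest unadjusted values were 0.0914 for exon 43 of 48 in COL14A1, 0.127 for exon 51 of 68 in COL11A1 and 0.129 for exon 45 in COL11A1. COL11A1 exon 51 is the first of the printed sequences, and its share of the gene's exon counts was 0.758%, 0.659% and 0.023% in controls and 0.811%, 0.967% and 0.281% in the knockdown. Both replicate 3 libraries were the low ones in their group. COL11A1 exon 45 had 614, 665 and 105 counts in controls and 552, 884 and 391 in the knockdown, with the same libraries low, and so had COL14A1 exon 43 (94, 103 and 25 against 77, 101 and 34).

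Genes that modify, fold, process, bind or degrade collagen were read in the same fit. Of 57 tested genes in 6 lists, 1 was called (1.67% of all genes were), and 22 were called with the block, 17 higher and 5 lower (17.3% of all genes were). The median log2 fold change was 0.30 for the hydroxylases, 0.16 for folding and secretion, 0.37 for propeptide removal and crosslinking, 0.27 for receptors, 0.26 for collagenases and 0.08 for the small proteoglycans, beside -0.04 over all genes. The called gene was ITGB1, the beta subunit of the collagen-binding integrins, which went from 627, 549 and 913 CPM in controls to 277, 216 and 281 CPM. It fell by 1.43 ± 0.22 on the log2 scale (adjusted p = 0.0302), with no overlap between groups. Leaving out any library other than control replicate 3 raised that p above the threshold, and those 5 fits called between 0 and 10 genes of the whole table.

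Of the 11 tested hydroxylases and their partners, which harden the helix by modifying proline and lysine, 4 rose with the block (P4HA1, P4HA2, PLOD1 and PLOD3) and none fell. P4HA2, a prolyl hydroxylase subunit, had 40.1, 38.1 and 32.4 CPM in controls and 55.6, 62.4 and 53.9 CPM in the knockdown, without overlap, with a log2 fold change of 0.64 (adjusted p = 0.0919, or 0.0120 with the block). LEPREL1 was not called in either fit. Of 14 genes for folding and secretion, 4 rose with the block (SERPINH1, PPIB, SEC24D and CREB3L1) and 2 fell (CTAGE5 and KLHL12). PPIB encodes a prolyl isomerase that helps collagen to fold and had 162, 140.2 and 125 CPM in controls and 194, 207 and 169 CPM in the knockdown, without overlap (adjusted p = 0.239, or 0.0237 with the block). KLHL12, which helps to form large transport carriers for procollagen, fell by 0.52 on the log2 scale with the block (adjusted p = 0.0204).

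Of 13 genes for propeptide removal and crosslinking, 4 rose with the block (BMP1, ADAMTS3, ADAMTS14 and the crosslinking oxidase LOX) and LOXL4 fell. ADAMTS14, which removes the amino-terminal propeptide, had 0.641, 0.926 and 0.529 CPM in controls and 1.86, 2.05 and 1.26 CPM in the knockdown, without overlap (adjusted p = 0.109, or 0.0178 with the block). TGM2 did not overlap between groups (0.437 to 2.06 against 2.44 to 3.40 CPM) and had an adjusted p of 0.0636 with the block. Of 10 receptors, ITGA1, ITGA11 and GPR56 rose with the block and ITGB1 and DDR2 fell, so 2 alpha subunits rose while their beta partner ITGB1 fell. Both of these alpha subunits were low, ITGA1 at 2.98 to 7.80 CPM and ITGA11 at 0.218 to 1.99 CPM over all libraries. The alpha subunits ITGA2 (38.9 to 58.3 CPM) and ITGA10 (0.73 to 1.13 CPM) overlapped between groups and were not called in either fit. Of 7 collagenases and gelatinases, FAP and MMP15 rose with the block, and MMP13 and MMP14 were not called. Of 10 small proteoglycans and fibril regulators only BGN and PRELP could be tested, and neither was called.

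The iCLIP lists held 1746795, 145718 and 208722 positions for replicates 1 to 3, each with a p-value from the authors. Few had an authors' p of 0.05 or below, at 4.4%, 2.77% and 3.74% of the 3 lists. Among exonic sense positions in collagen genes these were 97 of 1832, 3 of 120 and 8 of 277. Unless a limit on p is named, the counts and densities below use all listed positions. On the sense strand of collagen genes there were 14253, 628 and 1132 positions, of which 12.9%, 19.1% and 24.5% were exonic, close to the 14.1%, 20.4% and 26.4% over all genes. Of the 28 tested members, 25, 18 and 18 had at least 1 exonic position in lists 1 to 3 (89.3%, 64.3% and 64.3%), beside 79.0%, 38.6% and 49.3% of all tested genes. Collagen genes are long and several are abundant, and the part of length and level in these shares was not tested.

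COL5A1 carried the densest exonic positions in list 1, with 49.9 per kb, and in list 3, with 10.3 per kb, and in list 2 it followed COL12A1 and COL4A1 at 2.01 per kb. COL12A1 had 18.0, 2.94 and 5.10 per kb in lists 1 to 3 and COL4A1 had 26.3, 2.45 and 7.04 per kb. COL6A1 and COL18A1 were dense in list 1 (34.3 and 28.1 per kb) but had only 1.66 and 1.04 per kb in list 3. COL1A2, the collagen with the highest RNA level per length, had 7.95, 0.74 and 2.22 exonic positions per kb, below COL5A1 in all 3 lists. Over all members, 56.3%, 72.5% and 83.8% of the exonic positions in lists 1 to 3 lay in last exons. The same share over all genes was not measured, so these values cannot be read as particular to collagens. Last exons can also be long, as in COL5A1, where the last exon has 2686 of 8438 exonic nucleotides. In list 1 these were 313 of 421 in COL5A1, 136 of 172 in COL4A1 and 140 of 208 in COL12A1, and of 14 members with at least 20 exonic positions 8 had over 50% of them there. The other 6 were COL1A2 (10 of 43), COL18A1 (54 of 190), COL11A1 (52 of 129), COL4A5 (13 of 28), COL6A2 (22 of 72) and COL7A1 (7 of 136). COL1A2 had 2 of 4 in the last exon in list 2 and 9 of 12 in list 3.

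**Figure D5:**
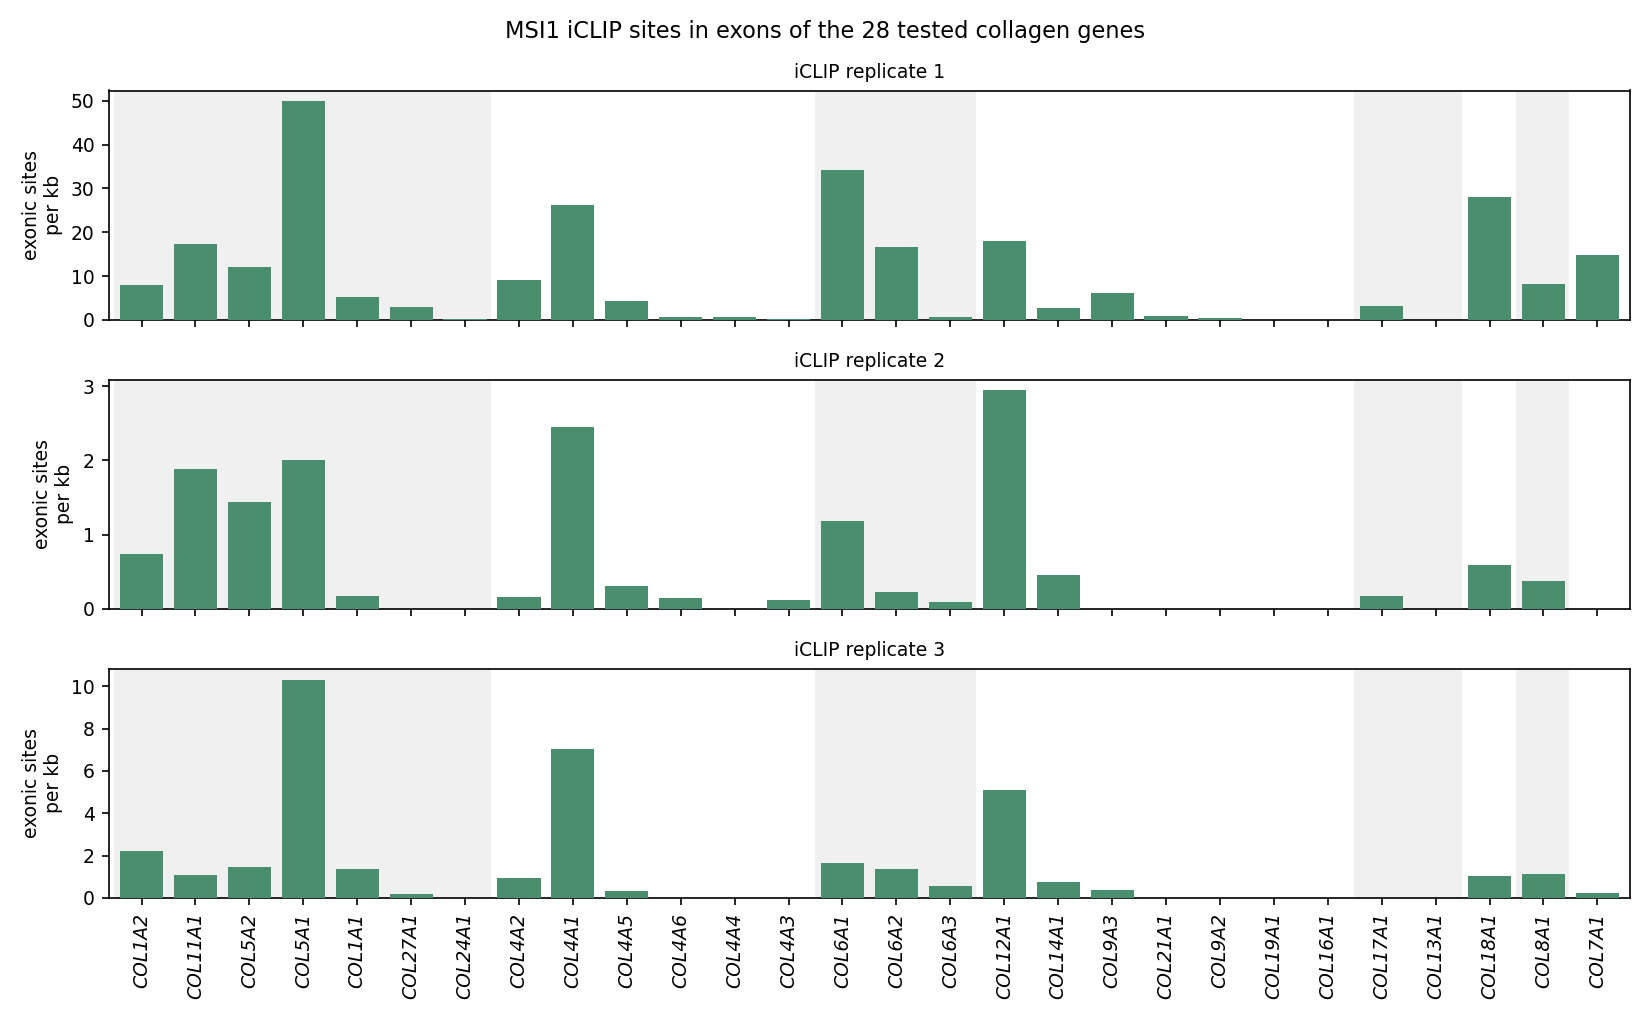
Exonic MSI1 iCLIP positions per kb of exon in the 28 tested collagen genes, in the order of the plot of levels, with 1 panel per iCLIP replicate and a separate axis range in each, starting at 0. COL5A1 is highest in replicates 1 and 3 (49.9 and 10.3 per kb) and COL12A1 in replicate 2 (2.94 per kb). All listed positions are counted, whatever the authors' p.

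Positions found at the same nucleotide in all 3 lists were few. There were 9 in 5 collagen genes, 6 of them exonic, and 4 of the 5 were tested genes. Over all 13856 tested genes, 6.05% had such a position and 2.35% had an exonic one. The exonic positions were 4 in the last exon of COL12A1 (exon 66; hg18 chromosome 6, positions 75850919, 75850934, 75850945 and 75850952) and 2 in the last exon of COL5A1 (exon 66; chromosome 9, positions 136874564 and 136875388). The 4 COL12A1 positions lie 157 to 190 nucleotides before the 3′ end of a last exon of 2232 nucleotides. The 2 COL5A1 positions lie 1945 and 1121 nucleotides before the end of a last exon of 2686 nucleotides. The intronic positions were 1 each in COL18A1 (intron 2), COL25A1 (intron 3) and COL4A6 (intron 4). None of these shared positions had an authors' p of 0.05 or below in any of the 3 lists. The lowest value was 0.0664, for COL12A1 position 75850934 in list 1. Of all tested genes, 0.303% had a shared position at or below 0.05 in each of the 3 lists, 0.152% in exons.

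With 2 lists as the requirement, 271 positions in 24 collagen genes remained, 112 of them exonic in 13 genes. Of the 28 tested members 20 (71.4%) had such a position and 12 (42.9%) an exonic one, beside 40.0% and 18.0% of all tested genes. COL18A1 had 98 of them, COL5A1 50, COL12A1 34 and COL4A1 23. In COL12A1 28 of the 34 lay in the last exon, in COL5A1 37 of 50 and in COL4A1 17 of 23, but in COL18A1 only 3 of 98 did. A last-exon share over all genes was not measured here either. COL18A1 had 6148 sense positions in list 1, rank 16 among all genes, of which 5958 were intronic. Of these, 82.8% lay in intron 2, which is 50035 nucleotides long and makes up 49.2% of its intron length, with 76.8% and 81.0% in lists 2 and 3.

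The genes with exonic positions shared by all 3 lists differed in direction in the knockdown: COL12A1 had a log2 fold change of -0.23 that passed no fit with all 6 libraries, and COL5A1 was called higher with the block (0.74) or with GC offsets (0.56). COL14A1, which fell, had 18, 3 and 5 exonic positions in lists 1 to 3, and COL1A1, which rose with the block, had 31, 1 and 8. COL13A1, which rose with the block, had no exonic position in any list. The 4-letter words ATAG and GTAG, which contain the UAG core bound by Musashi proteins, were counted in annotated 3′ untranslated regions on the sense strand. Tested collagen genes had a median of 3.85 words per kb and all 12103 measured genes had 5.13. COL5A2 (7.36 per kb), COL8A1 (6.8) and COL4A1 (6.43) were the highest members, COL1A1 had 0.90 and COL7A1 had none. The annotated 3′ untranslated region of COL8A1 has 3090 nucleotides, while its deposited exons have 2658 in all. Words and exonic positions of that gene thus cover partly different sequence. COL12A1 and COL5A1, which hold the exonic positions shared by all 3 lists, had 4.95 and 3.94 per kb.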

How the data were processed

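The data were 6 RNA-seq samples (3 control, 3 MSI1 knockdown) with raw read counts per gene and per exon as the authors deposited them, and 3 iCLIP samples with positions and p-values as deposited by the authors. Positions are on hg18, per the submitters' processing notes, while strand setting, aligner, counter and peak caller were not stated by the labels or files used here. Without a stated strand setting, reads of overlapping or antisense genes cannot be told apart. A read that crosses a junction can enter more than 1 exon: exon sums were 1.36 times the gene count (median of tested collagen genes) and 1.22 times over all tested genes.

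Sample titles gave the groups and the replicate numbers. Gene counts were fitted over the whole table with edgeR 4.0.16 in R 4.3.3 (TMM factors, filterByExpr, quasi-likelihood test, Benjamini-Hochberg adjustment, threshold 0.05), and the SE is the absolute log2 fold change divided by the root of the F statistic. Exons were tested against their gene with edgeR's diffSpliceDGE. DESeq2 1.42.0 was an alternative. Both kinds of test were checked on simulated counts. Transcript GC content and exon sequences came from GENCODE 29, in which 93.7% of tested genes had a value and 95.6% of collagen exons were matched by order and length. An iCLIP position was shared when nucleotide and strand were equal. Replicate numbers pair the samples here, because same-numbered control and knockdown libraries deviated together from their group means (r = 0.32, 0.73 and 0.75 over tested genes), although control replicate 1 correlated more with knockdown replicate 2 (0.49).

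Members given with values in each library were the 12 with the highest level per length, those called with or without the block, and those with a shared iCLIP position. Pathway lists were given with up to 4 genes by adjusted p. The members and lists were chosen with earlier results of these data known. Depths are given with the results, and no libraries were identical or within sampling noise of each other.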

Additional observations from a re-analysis of the deposited data

How the results depend on the processing

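The count of collagen genes called, 0 in the fit on group alone, was 4 with DESeq2, 9 with the replicate block, 9 with the replicate block and DESeq2 size factors, and 0 to 3 when 1 library was left out, where only leaving out control replicate 3 gave calls and the other 5 such fits called 0 to 10 genes of the whole table. Chosen after seeing the data, GC offsets gave 9, the replicate block with GC offsets 16, and the replicate block without both replicate 3 libraries 17. The share over all genes rose with them, from 1.67% on group alone to 5.76% with DESeq2 and 17.3% with the block. It was 2278 of 13856 genes with block and DESeq2 size factors, 20.5% with GC offsets and 40.6% with block and offsets. Without both replicate 3 libraries it was 31.8% with the block, and without control replicate 3 alone 7.31%. The 1 called gene of the pathway lists became 7 with DESeq2, 22 with the replicate block, 23 with the block and DESeq2 size factors, 21 with GC offsets, 33 with block and GC offsets, 33 with the block without both replicate 3 libraries, and 0 to 10 with 1 library left out. These counts come from the same fits and stand beside the same shares over all genes. The 5 collagen genes with a position in all 3 iCLIP lists became 24 with at least 2 lists, 2 in exons, 0 at an authors' p of 0.05 or below in each list, and 10 to 22 with 1 list left out. The 9 positions became 271, 0 at that p, and 20 to 223 with 1 list left out. The cause was not tested. The count of called exons stayed at 0 in all settings run, and the median log2 fold change of 0.28 lay between 0.11 and 0.45 with 1 library left out.

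No member was called in the fit on group alone, so none could lose a call under an alternative. Fits that left out 1 library other than control replicate 3 called 0 to 10 genes of the whole table and could hardly add one. Of 420 comparisons of a single member's log2 fold change under an alternative, 319 kept direction and side of the threshold, 67 moved past it and 34 changed sign, in 9 genes. With 1 library left out, these 9 ranged from -0.382 to 0.047 for COL11A1, -0.412 to 0.285 for COL19A1, -0.124 to 0.169 for COL1A2, -0.176 to 0.562 for COL27A1, -0.103 to 0.122 for COL4A1, -0.142 to 0.423 for COL4A2, -0.067 to 0.429 for COL4A3, -0.191 to 0.047 for COL4A5 and -0.059 to 0.575 for COL6A1. Under DESeq2 size factors, DESeq2, no filter, and the replicate block with DESeq2 size factors, COL1A2 was 0.044, 0.044, 0.045 and 0.045, and COL4A1 was 0.022, 0.022, 0.023 and 0.023. From exon sums they were 0.075 and 0.1, and with the block without both replicate 3 libraries 0.021 and 0.024. COL19A1 was 0.016 with the block and DESeq2 size factors, 0.060 with GC offsets, 0.090 with block and offsets, and 0.311 with the block without both replicate 3 libraries. No ratio of paired chains passed the threshold with or without pairing, which was added after seeing the data. Among the marker genes the replicate block added the calls named in the report.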
